A study of Homo sapiens with 16 samples.

Results

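The HOX genes of clusters A to D were followed in human HEK293 cells depleted of DNA Topoisomerase I (Top1). The genes were defined by position alone, as the rows of the deposited RNA-seq table that lie wholly inside 1 of 4 windows of the hg19 genome and on the strand of the cluster. The windows were 27130000 to 27250000 on chromosome 7 (HOXA, minus strand), 46600000 to 46810000 on chromosome 17 (HOXB, minus strand), 54330000 to 54450000 on chromosome 12 (HOXC, plus strand) and 176955000 to 177060000 on chromosome 2 (HOXD, plus strand). They held 38 of the 19333 genes of the table, of which 11 lay in HOXA, 11 in HOXB, 9 in HOXC and 7 in HOXD. On the other strand the windows held 0 rows.

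HOX genes encode homeodomain transcription factors that give cells of the embryo their place along the body axis. Within a cluster the genes stand side by side and read in the same direction, and in development those at the 3′ end are switched on earlier and closer to the head than those at the 5′ end. Silent stretches of the clusters are covered by Polycomb proteins and the H3K27me3 mark, and non-coding RNAs are made from both strands. Top1 relaxes the supercoils that RNA polymerase leaves in front of and behind itself.

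The libraries were made from RNA from which the ribosomal species had been removed. HEK293, an established line from human embryonic kidney, was transfected with a negative control RNA (scramble, 2 libraries) or with 10 nM of siRNA against Top1 (Top1 KD, 2 libraries), and both groups were harvested on day 5 after the first transfection. The labels name no other allele or agent for either group, and the design text states that the samples came from different passages. Recovered reads ranged from 14681774 to 18366226 per library, and the 38 genes took 9443 to 11137 of them, or 0.0572% to 0.0656%. The paper states that the Top1 knockdown was checked by Western blot and in its RNA-seq. The identifiers of the table could not be paired with gene symbols, so the level of TOP1 itself and markers of the line were not checked here, and the groups used here rest on the labels.

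For the same reason each gene is given by its cluster and its position, counted from the 3′ end. The position is not the number in a HOX symbol. RefSeq (GRCh38.p14) lists as many protein-coding HOX genes as the table has rows in HOXA (11) and HOXC (9). It lists 10 in HOXB against 11 rows and 9 in HOXD against 7 rows, and no symbol was assigned from the order of the rows. HOXB thus had more rows than listed HOX genes, and may hold a row that is not a HOX gene. In this text a HOX gene means any row taken from the windows. No promoter or protein is printed, since 0 of the 19333 identifiers matched a key of the name tables.

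The values were reads per gene scaled by the size factor of each library from DESeq2, called normalized counts here. Levels were compared between genes as normalized counts per kb of the span from start to end, introns included. Exceptions are the cluster sums with their shares, and values said not to be divided by span, in which long spans weigh more. Genes lying wholly inside the span of another gene carried no information. Of 265 genes nested in a gene of the same strand, 265 had 0 reads in every library, and so had 420 of 420 nested in a gene of the other strand, against 16.8% of the genes not nested. Genes nested in a gene of the other strand were thus as empty as those nested on the same strand, and the cause was not tested. The strand setting of the counting is not given, so reads of an antisense RNA cannot be told apart here from those of the HOX gene opposite. Position 4 of HOXB lies inside position 3, and position 2 of HOXD lies inside position 3. Both were listed at 0 in the 4 libraries, and nothing is read from those zeros. In bulk RNA, fewer cells that express a gene and less RNA per cell cannot be told apart.

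In Top1 KD cells the 4 tested HOXD genes had fitted levels 1.26 to 1.82 times those of scramble cells. Of these, 1 was called higher (adjusted p under 0.05 and at least 1.5-fold, by limma). Over the 4 clusters this made 1 of 31 tested HOX genes, where 3.88% of all tested genes were called higher. That call was lost when any single library was left out. In HOXA 7 of 11 log2 fold changes, in HOXB 6 of 8 and in HOXC 5 of 8 lay below 0, as did 49.8% of all tested genes, and in HOXC it was 4 of 8 by edgeR and DESeq2 and without Top1 KD replicate 1. By limma 0 of the 27 tested genes of these 3 clusters were called, against 8.15% of all tested genes, and 2 had an unadjusted p under 0.05. The HOX genes were tested together with the rest of the table by limma, on log2(normalized count + 1). The fit took in the 13086 genes that had 10 or more normalized counts in 2 or more libraries. The added 1 shrinks the fold changes of weakly expressed genes. Calls needed both a Benjamini-Hochberg adjusted p under 0.05, over all 13086 genes, and a fold change of 1.5 or more. Of the 38 HOX genes 31 were tested, 11 in HOXA, 8 in HOXB, 8 in HOXC and 4 in HOXD. The 7 others comprised the 2 nested genes, 1 further gene without a read (position 1 of HOXB) and 4 genes with few reads.

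Just above the filter lay position 5 of HOXB, with 25.6 and 9.68 normalized counts in scramble and 3.25 and 17.4 in Top1 KD cells. Just below it lay position 1 of HOXD, with 9.60 and 5.28 in scramble and 20.6 and 4.85 in Top1 KD cells. Position 8 of HOXC had 0 reads in both scramble libraries and 12 and 8 reads in the Top1 KD libraries. Its Top1 KD mean was 3.55 times a floor of 3 reads per scramble library, a ratio that leaves out the spread of the Top1 KD reads. This gene was not tested and was singled out after its values were seen. Position 10 of HOXB had 8 reads in Top1 KD replicate 2 and 0 in the other libraries, and position 7 of HOXD had 8 reads in scramble replicate 2 and 0 in the others. Position 1 of HOXB, which is not nested, was at 0 in all 4 libraries, which allows up to 2.64 to 3.25 normalized counts per library at 3 reads. This limit covers counting error only.

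**Figure D1:**
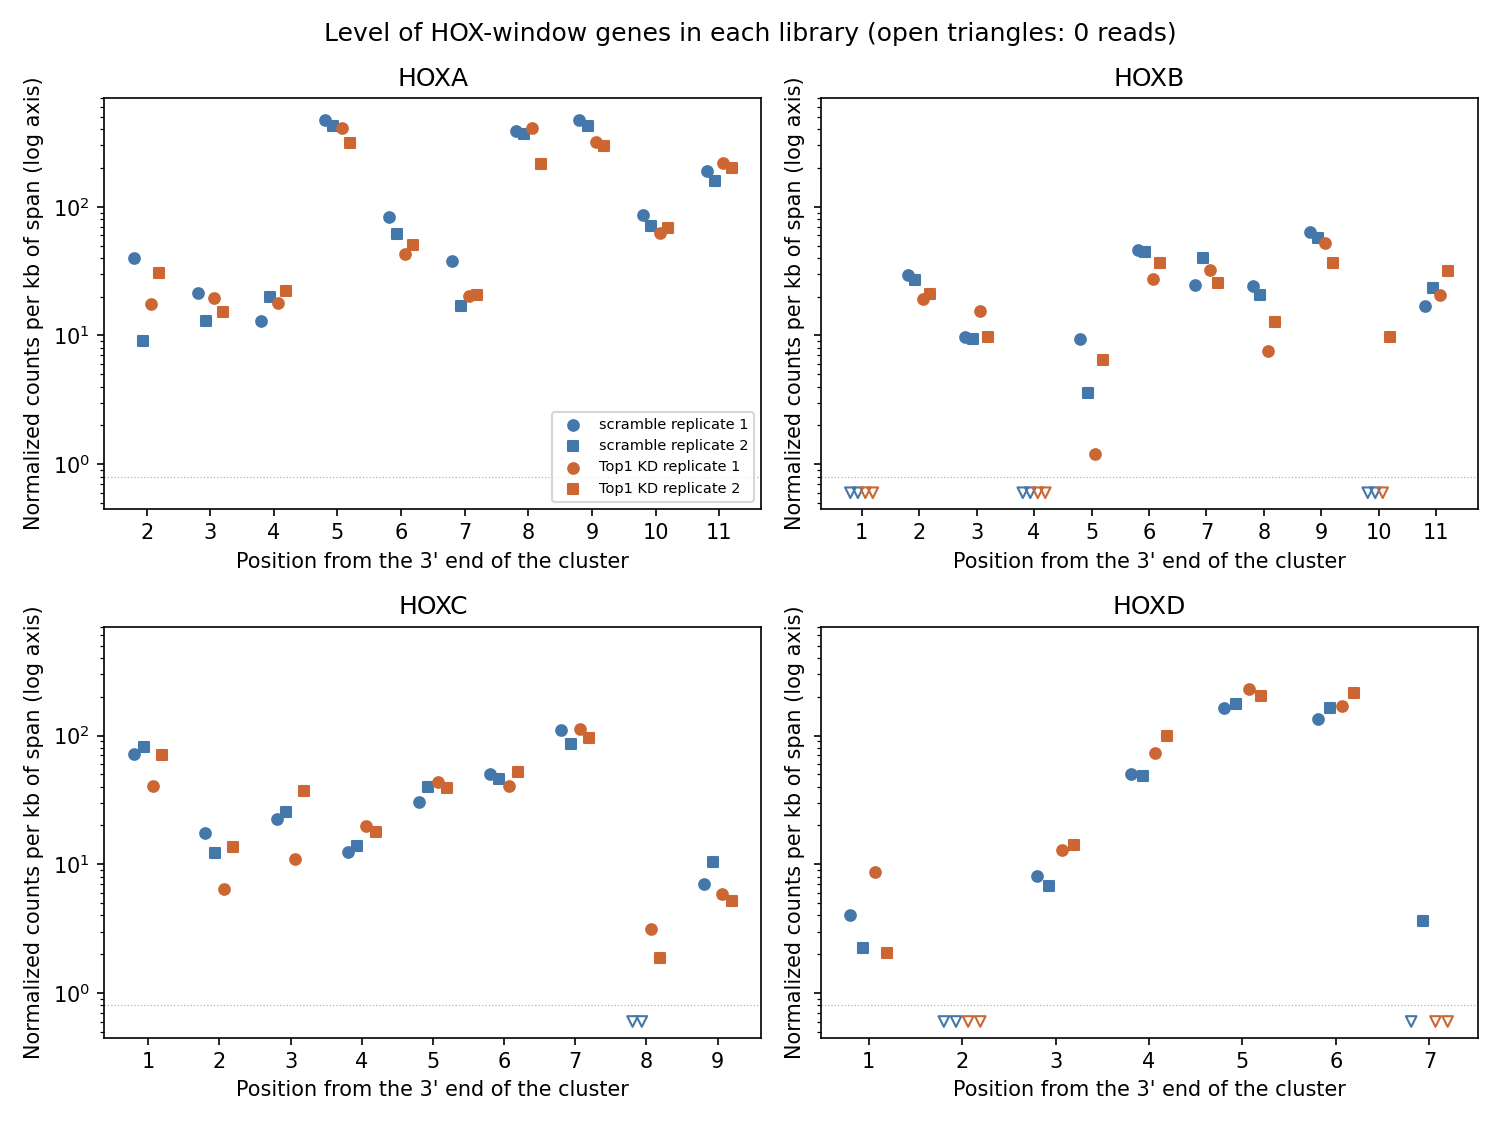
Normalized counts per kb of span (log axis) of HOX genes by position from the 3′ end, one point per library, with open triangles for 0 reads. HOXA reaches the highest levels at positions 5 and 9, at 447 and 450 in scramble cells. HOXD goes from 7.41 at position 3, which has a span of 22704 bases, to 171 at position 5.

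HOX reads, not divided by span, were unevenly spread over the clusters in scramble cells. HOXA held most of them, with 6491 and 5544 summed normalized counts in the scramble libraries. HOXB held 1579 and 1570, HOXC 1354 and 1348, and HOXD 1255 and 1336. The 3 highest genes of HOXA made up 66.7% of its sum and those of HOXD 88.6%. Over the tested members the median level was 72.4 normalized counts per kb in HOXA, 25.4 in HOXB, 29.4 in HOXC and 99.5 in HOXD, against 14.9 over all tested genes. The filter had left out 3 of 7 rows in HOXD, 3 of 11 in HOXB, 1 of 9 in HOXC and 0 of 11 in HOXA. Those of HOXD included positions 1 and 7, at 3.12 and 1.80 per kb in scramble cells. These medians therefore do not rank the clusters over all their rows. HOX spans were short, with a median of 3230 bases against 21731 over the table, which weighs on a level per kb where introns are counted. As a rank among the 13086 tested genes, the tested HOX genes lay at a median percentile of 69.3.

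Levels did not follow 1 gradient along the clusters. In HOXA the order from the 3′ end and the level per kb had a Spearman's rho of 0.62 over 11 genes, in HOXB 0.29 over 8, in HOXC -0.10 over 8 and in HOXD 0.80 over 4. These values describe genes of the same libraries, which are not independent. In HOXD, position 3 lay below position 4 per kb but above it in normalized counts not divided by span.

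HOXA had reads on each of its genes. Its 2 highest genes per kb were position 9, at 450 normalized counts per kb in scramble cells, and position 5, at 447. Position 8 followed at 379 and position 11, at the 5′ end, at 175. At the other extreme, positions 3 and 4 lay at 17.2 and 16.5. From position 5 on, high and low genes were interspersed. Between position 5 and position 8 lay position 6 at 72.4 and position 7 at 27.4, and between position 9 and position 11 lay position 10 at 78.9. Levels of positions 5 and 9 overlapped between the scramble libraries, and their order is not resolved.

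Position 9 of HOXA (ENST00000283921) had 1759 and 1585 normalized counts in scramble and 1181 and 1102 in Top1 KD cells. Both Top1 KD libraries lay below both scramble libraries. It fell by 0.55 on the log2 scale (standard error 0.13, with a limma adjusted p = 0.00878), which is under the 1.5-fold threshold, so it was not called. Without scramble replicate 1 the adjusted p was 0.184 and without scramble replicate 2 it was 0.0722. Without Top1 KD replicate 1 the change passed 1.5-fold (log2 fold change -0.60, limma adjusted p = 0.0350).

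Position 5 of HOXA had 1230 and 1108 normalized counts in scramble and 1066 and 823 in Top1 KD cells, also without overlap, with a log2 fold change of -0.32 ± 0.15 (standard error, SE, with an adjusted p = 0.175 by limma). Position 6 (ENST00000222728) had 198 and 146 in scramble and 102 and 119 in Top1 KD cells. Its log2 fold change, at -0.62 the lowest of HOXA, did not pass the test (standard error 0.33, limma adjusted p = 0.224). Position 8 had 1198 and 1148 in scramble cells, but 1277 and 669 in the Top1 KD libraries, which lay on either side of the scramble libraries. Its log2 fold change was -0.34 (limma adjusted p = 0.304), and without Top1 KD replicate 1 it was called lower, at -0.81 (limma adjusted p = 0.0202), while without Top1 KD replicate 2 it was 0.12.

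The largest positive values of HOXA belonged to low genes with wide spread. Position 4 had 29.9 and 45.8 normalized counts in scramble and 41.1 and 50.4 in Top1 KD cells. Position 2 had 109 and 24.6 in scramble cells, a 4.42-fold difference between replicates, and 47.6 and 83.4 in Top1 KD cells. Their log2 fold changes of 0.29 and 0.27 were smaller than their standard errors of 0.58 and 0.63. Position 11 was the only gene of HOXA whose Top1 KD libraries both lay above the scramble libraries, with 973 and 811 in scramble and 1122 and 1020 in Top1 KD cells, and its log2 fold change of 0.27 did not pass the test (standard error 0.15, limma adjusted p = 0.236).

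In HOXA, 0 of 11 genes were called by limma, against 8.15% of all tested genes in either direction. An unadjusted p under 0.05 was found for 1 of the 11, against 29.3% of all tested genes. The median log2 fold change was -0.30, against 0.0025 over all tested genes, and 7 of 11 values were below 0, as were 49.8% of all. The median was -0.12 without scramble replicate 1 and -0.13 without Top1 KD replicate 2, where 6 of 11 values were below 0. In 4 of 11 genes both Top1 KD libraries lay below both scramble libraries, where 29.0% of all tested genes did.

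**Figure D2:**
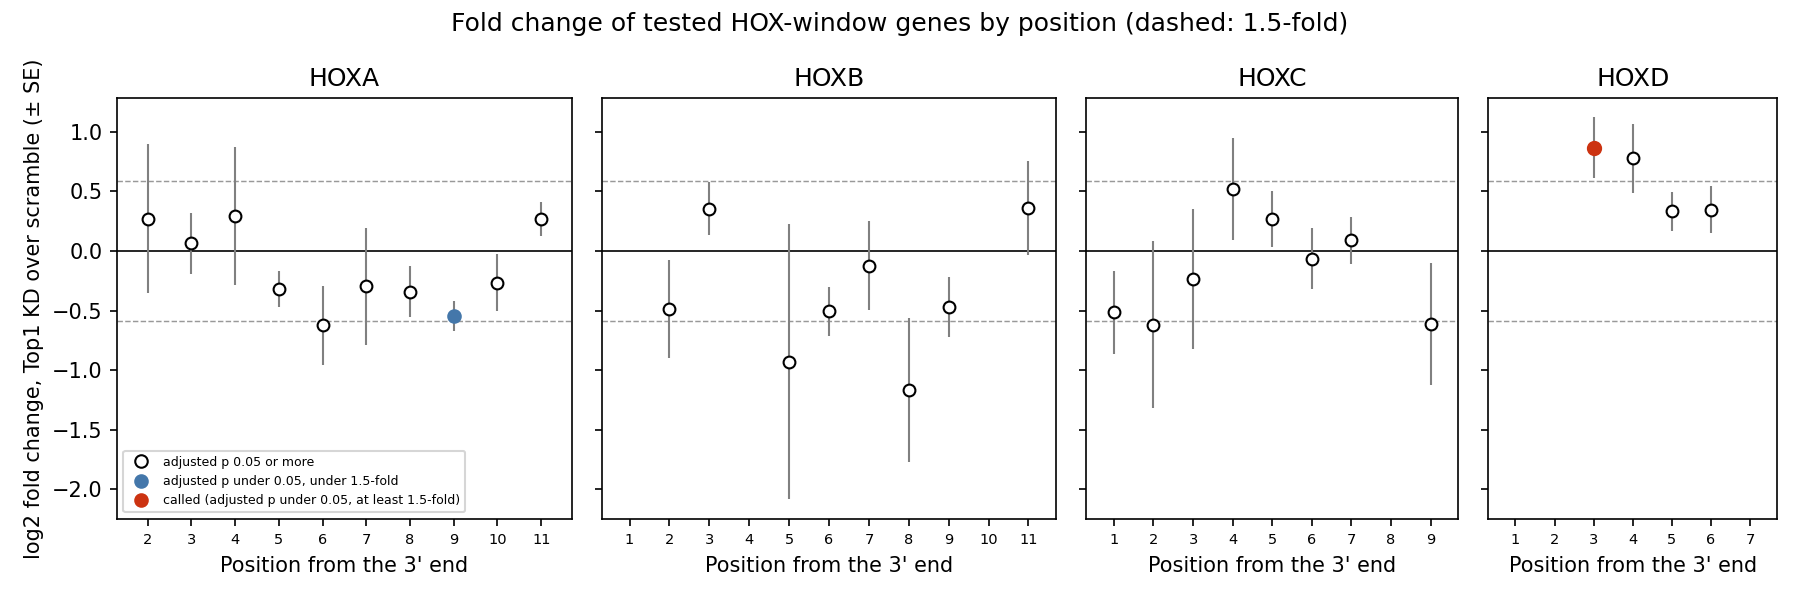
Log2 fold change (Top1 KD over scramble, ± standard error) of tested HOX genes by position from the 3′ end, with dashed lines at 1.5-fold. Position 3 of HOXD, filled red at 0.86, is the 1 called gene, position 9 of HOXA, filled blue at -0.55, has an adjusted p under 0.05, and the values of HOXD are all above 0.

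HOXB covered 201 kb (46605888 to 46806540), of which a single gap of 95.2 kb separated position 9 from the genes at the 5′ end. Its highest genes per kb in scramble cells were position 9, at 60.5, and position 6, at 45.2. Position 3, whose span of 40267 bases is the longest of the 38, lay at 9.56.

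Position 9 of HOXB had 337 and 307 normalized counts in scramble and 278 and 194 in Top1 KD cells, and position 6 had 492 and 477 in scramble and 297 and 391 in Top1 KD cells. The groups did not overlap in either gene. The log2 fold change was -0.47 for position 9 (standard error 0.25, limma adjusted p = 0.226) and -0.51 for position 6 (standard error 0.21, limma adjusted p = 0.110). Position 8 gave the lowest value of all 31 genes, with 63.0 and 53.7 in scramble and 19.5 and 33.0 in Top1 KD cells and a log2 fold change of -1.16 ± 0.60 (standard error). With 18 and 34 reads in the Top1 KD libraries it did not pass the test (limma adjusted p = 0.213). Position 5, described above for its few reads, had a log2 fold change of -0.93 with a standard error of 1.15.

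Position 3 of HOXB had 393 and 377 normalized counts in scramble cells and 624 and 389 in Top1 KD cells. The higher value belonged to Top1 KD replicate 1 alone. Its log2 fold change was 0.36 (limma adjusted p = 0.311). Without Top1 KD replicate 2 it was called higher, at 0.70 (limma adjusted p = 0.0494), and without Top1 KD replicate 1 it was 0.014. Position 11, at the 5′ end, had 74.7 and 103 in scramble and 90.9 and 140 in Top1 KD cells, which overlapped, with a log2 fold change of 0.36 (standard error 0.40).

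By limma 0 of 8 tested HOXB genes were called, against 8.15% of all tested genes, and 1 had an unadjusted p under 0.05, against 29.3%. The median log2 fold change was -0.48, and 6 of 8 values were below 0. Without Top1 KD replicate 1 the median was -0.30, with 5 of 8 below 0. In 4 of the 8 both Top1 KD libraries lay below both scramble libraries, and in 0 above, against 29.0% and 28.8% of all tested genes.

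HOXC covered 117 kb (54332535 to 54449814). Position 7 was the highest per kb in scramble cells, at 98.0, and position 1, at the 3′ end, came next at 77.0. Position 8 had no read in scramble cells, and position 9, at the 5′ end, lay at 8.68. Position 7 had 497 and 388 normalized counts in scramble and 505 and 431 in Top1 KD cells, and the groups overlapped (log2 fold change 0.09, standard error 0.20). Position 1 had 155 and 177 in scramble and 87.7 and 152 in Top1 KD cells, with a log2 fold change of -0.51 ± 0.35 (SE, adjusted p = 0.351 by limma).

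Of the other HOXC genes, position 4 had 58.7 and 65.1 normalized counts in scramble and 94.2 and 84.3 in Top1 KD cells, and its log2 fold change was 0.52 ± 0.43 (standard error). Position 5 had 236 and 308 in scramble and 342 and 307 in Top1 KD cells, overlapping by a margin of under 1 count (log2 fold change 0.27, standard error 0.23). Position 2 had 43.7 and 30.8 in scramble and 16.2 and 33.9 in Top1 KD cells, and position 9 had 54.4 and 80.9 in scramble and 45.5 and 40.7 in Top1 KD cells. Only in the second of these did the groups not overlap, and their log2 fold changes of -0.62 and -0.61 had standard errors of 0.70 and 0.51. Position 3 had 55.5 and 62.5 in scramble cells and 27.1 and 91.1 in the Top1 KD libraries, which lay on either side of them. Its log2 fold change of -0.24 was 0.62 without Top1 KD replicate 1 and -1.09 without Top1 KD replicate 2.

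In HOXC 0 of 8 tested genes were called by limma, against 8.15% of all tested genes, and 0 had an unadjusted p under 0.05, against 29.3%. Its median log2 fold change was -0.15, with 5 values below 0 and 3 above, and its sign was not stable. The median turned to 0.046 without Top1 KD replicate 1, with 4 values below 0 and 4 above, and went to -0.39 without Top1 KD replicate 2. By edgeR and DESeq2 it was -0.028 and -0.024, again with 4 and 4. The groups overlapped in 5 of the 8, and in 5522 of all 13086 tested genes.

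HOXD covered 91.2 kb (176964458 to 177055688). Its 4 tested genes, positions 3 to 6, follow each other among the rows of the table, with a largest gap of 25.3 kb between positions 3 and 4, and the other 3 rows had at most 20.6 normalized counts in any library. Position 5 was the highest per kb in scramble cells at 171 and position 6 followed at 150, while position 4 lay at 49.4 and position 3 at 7.41. Not divided by span, position 3 had a scramble mean of 168 normalized counts and position 4 of 137, over spans of 22704 and 2766 bases.

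Position 3 of HOXD (ENST00000468418, 177015122 to 177037825) was the only called HOX gene. It had 184 and 153 normalized counts in scramble and 291 and 322 in Top1 KD cells, or 172 and 174 reads against 269 and 332. Both Top1 KD libraries lay above both scramble libraries. It rose by 0.86 on the log2 scale (standard error 0.26, with a limma adjusted p = 0.0330), or 1.82-fold. Its span of 22704 bases holds that of position 2. The adjusted p was 0.0981 without Top1 KD replicate 1, 0.114 without Top1 KD replicate 2, 0.134 without scramble replicate 1 and 0.247 without scramble replicate 2, with log2 fold changes from 0.73 to 0.99. With no filter on low counts the limma adjusted p was 0.0533.

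Position 4 of HOXD (ENST00000249499) had 140 and 134 normalized counts in scramble and 202 and 272 in Top1 KD cells. The groups did not overlap, and the log2 fold change of 0.78 did not pass the adjusted threshold (standard error 0.29, limma adjusted p = 0.0857). Position 5 had 555 and 594 in scramble and 768 and 679 in Top1 KD cells, with a log2 fold change of 0.33 ± 0.16 (SE, adjusted p = 0.189 by limma). Position 6 had 367 and 443 in scramble and 456 and 578 in Top1 KD cells, with a log2 fold change of 0.35 ± 0.20 (SE, adjusted p = 0.266 by limma). These 2 genes, the highest of the cluster, had the smaller changes.

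In HOXD, 1 of 4 tested genes was called higher, or 1 of 31 over the 4 clusters, where 3.88% of all tested genes were. In 4 of 4 both Top1 KD libraries lay above both scramble libraries, where 28.8% of all tested genes did, and 4 of 4 values were above 0, as were 50.2% of all. The median log2 fold change was 0.56, and 0.49 to 0.73 with a library left out. With no filter on low counts 6 HOXD genes entered the fit. Of these, 5 values were above 0 and 1 below, and the median was 0.40. The 4 genes that passed the filter come from the same libraries and are not independent of each other.

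**Figure D3:**
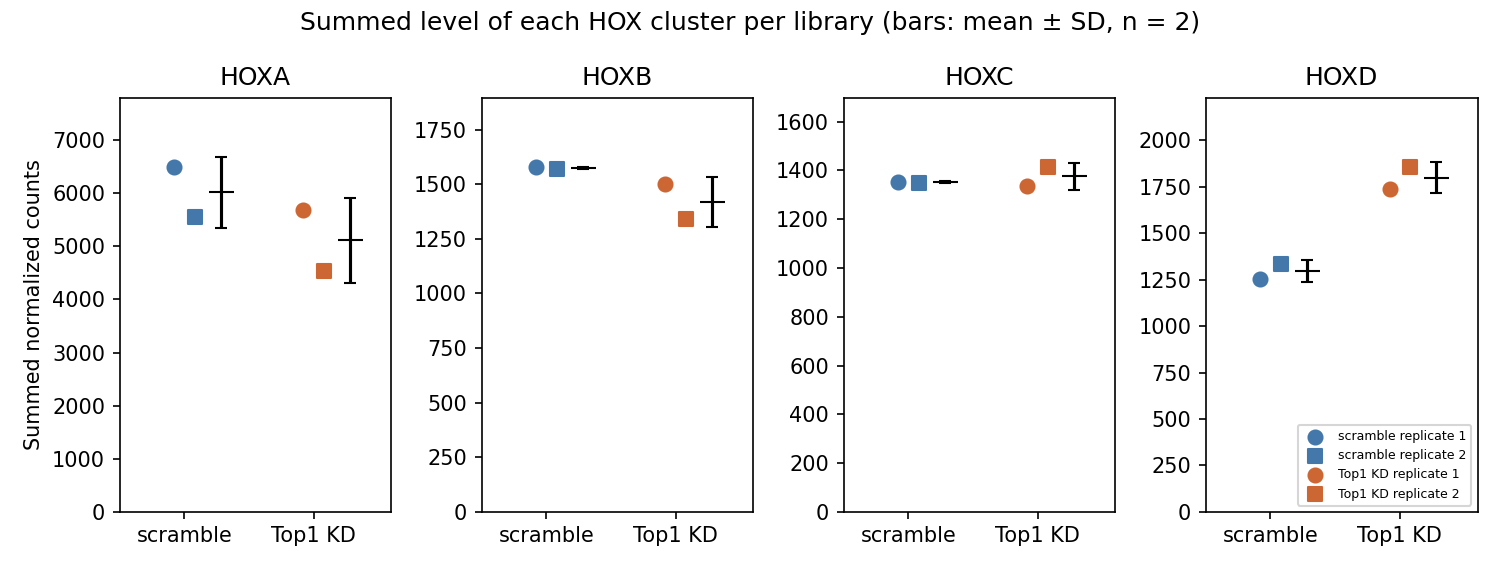
Summed normalized counts of each HOX cluster in each library, with the mean ± SD of each group (n = 2) and vertical axes that start at 0. The Top1 KD libraries lie above the scramble libraries in HOXD (1738 and 1856 against 1255 and 1336) and below them in HOXB (1500.0 and 1340 against 1579 and 1570), and the groups overlap in HOXA and HOXC.

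Summed over all its rows, HOXD stood at 1296 ± 57.8 (SD, n = 2) normalized counts in scramble and 1797 ± 83.5 (SD, n = 2) in Top1 KD cells, a ratio of 1.39 with groups that did not overlap. No p is given for the sums, because their members, though defined by position, were chosen with earlier results of these data known. HOXB stood at 1575 ± 6.11 (SD, n = 2) and 1420 ± 113 (SD, n = 2), a ratio of 0.90 with groups that did not overlap. HOXA stood at 6018 ± 670.1 (SD, n = 2) and 5108 ± 799 (SD, n = 2), a ratio of 0.85, and its groups overlapped. HOXC stood at 1351 ± 4.31 (SD, n = 2) and 1375 ± 54.9 (SD, n = 2), a ratio of 1.02. All 38 genes together had a ratio of 0.95, and their groups overlapped. With 2 libraries per group a lack of overlap is frequent. Both Top1 KD libraries lay above both scramble libraries in 28.8% of all tested genes, and below them in 29.0%.

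Within each library, the HOXD sum was also set against those of the other clusters. The log2 ratio of the HOXD sum to the HOXA sum was -2.37 and -2.05 in scramble and -1.71 and -1.29 in Top1 KD cells, a mean shift of 0.71. Against HOXB the ratio went from -0.33 and -0.23 to 0.21 and 0.47, and against HOXC from -0.11 and -0.01 to 0.38 and 0.39. In each of these 3 ratios both Top1 KD libraries lay above both scramble libraries. The 3 ratios share the HOXD sums and are not independent of each other. A ratio within a library does not depend on the scaling of that library. The ratio of HOXC to HOXB, at -0.22 in both scramble libraries and at -0.17 and 0.08 in the Top1 KD libraries, did not overlap between groups either. Between HOXA and HOXB and between HOXA and HOXC the ratios of the groups overlapped.

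Within the clusters, the order from the 3′ end and the log2 fold change had a Spearman's rho of -0.18 in HOXA, 0.21 in HOXB, 0.24 in HOXC and -0.80 in HOXD, the last over 4 genes. Over the 31 tested genes, the level per kb in scramble cells and the log2 fold change had a rho of -0.08. These correlations are across genes of the same 4 libraries and are descriptions.

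**Figure D4:**
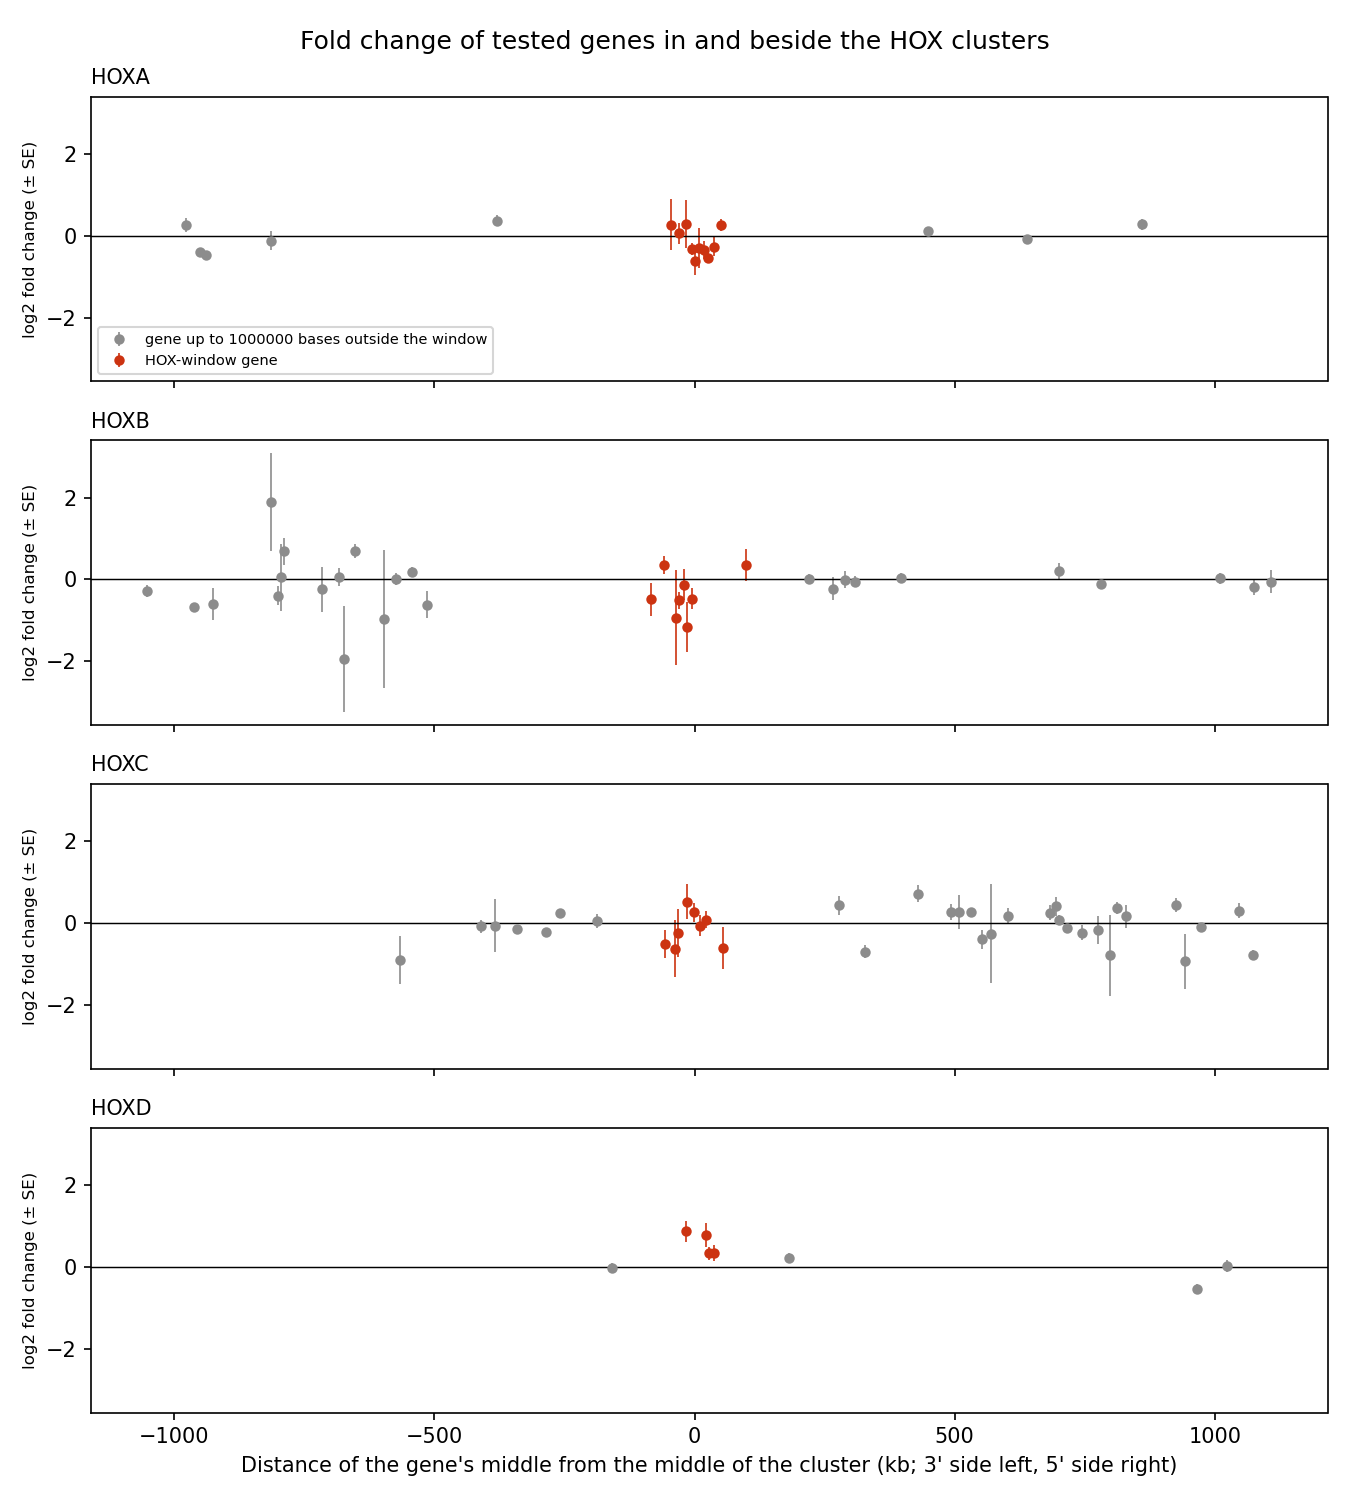
Log2 fold change (± standard error) of tested genes of each cluster (red) and of tested genes up to 1000000 bases outside its window (grey), by distance in kb from the middle of the cluster, with the 3′ side on the left. The 4 HOXD genes lie at 0.33 to 0.86, and the nearest tested gene on either side lies at -0.02 and 0.22.

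The genes beside the clusters were taken up to 1000000 bases outside each window, on both strands. Of 96 such genes 67 were tested, with a median log2 fold change of -0.02, 2 called higher and 3 called lower. Beside HOXD 4 genes were tested, with log2 fold changes from -0.54 to 0.22 and a median of -0.0033. By limma 0 of them were called and 1 had an adjusted p under 0.05 at a change below 1.5-fold. The nearest on the 3′ side, 78.5 kb away, had 1385 and 1590 normalized counts in scramble and 1481 and 1438 in Top1 KD cells (log2 fold change -0.02, standard error 0.12). The nearest on the 5′ side, 97.4 kb away, had 2056 and 2283 in scramble and 2367 and 2675 in Top1 KD cells (log2 fold change 0.22, standard error 0.11, limma adjusted p = 0.222). In this neighbour, too, both Top1 KD libraries lay above both scramble libraries. The median of the flanks was 0.01 beside HOXA over 8 genes, -0.05 beside HOXB over 25 and -0.0055 beside HOXC over 30. The nearest tested genes on the 3′ and 5′ sides had log2 fold changes of 0.37 and 0.11 beside HOXA. The values were -0.62 and 0.02 beside HOXB, and 0.05 and 0.44 beside HOXC.

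HOX genes also differed between replicates. Of the 31 tested, 6 differed at least 1.5-fold between both scramble replicates and 10 between both Top1 KD replicates, against 14.3% and 18.8% of all tested genes, and only 21 of the 31 had a mean of at least 100 normalized counts, where 10308 of 13086 did. None of these 6 and 10 lay in HOXD. Over the 4 clusters, 1 gene was called higher, against 3.88% of all tested genes, and by limma 0 were called lower, against 4.26%. An adjusted p under 0.05 at any fold was found for 2 of 31, against 14.8%, and an unadjusted p under 0.05 for 4 of 31, against 29.3%.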

How the data were processed

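Single-end reads passed the authors' quality control in fastq-mcf and were aligned in TopHat2 (2.0.5), and reads with a unique position were kept. The submitters' processing notes also name HTSeq, DESeq2 and hg19. The annotation release and strand setting are not given in the sources used here. The deposited per-library values are a signal, namely counts divided by a DESeq2 size factor. The authors also deposited their own comparison (log2 fold change, its standard error, a test statistic or score, p-values), which was not used. Samples of the R-loop and RNA polymerase II assays were not analysed here. One gene enters the counts, sums and fits but is not reported by itself here, in the text or the figures.

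In each library 100% of the values were whole multiples of 1 read (within 0.05 reads under 50 reads), so reads were recovered by rounding. The count tests called 1089 (edgeR) and 1098 (DESeq2) genes, against 1066 by limma.

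The groups were compared with limma 3.58.1 in R 4.3.3, with a mean-variance trend. edgeR 4.0.16 (quasi-likelihood) and DESeq2 1.42.0 on recovered reads, other scalings, pseudocounts, filters, thresholds, a replicate block and leaving out each library were alternatives. The method was tested on simulated data. Genes with values in every library were, per cluster, the 2 highest per kb, the 2 largest positive and 2 largest negative changes, any called gene, and those at the filter. Some others are shown where a library decides their value, and were chosen after their values were seen. The members and lists were chosen with earlier results of these data known. A planned permutation test of the cluster sums is not reported, because the members were so chosen. A planned list of HOX cofactors and Polycomb genes could not be found without symbols.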

Additional observations from a re-analysis of the deposited data

How the results depend on the processing

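The count of called HOX genes was 1 under edgeR, DESeq2, library-size scaling, the pseudocounts of 0.1 and 5 and the replicate block, in each case position 3 of HOXD. It was 0 by limma with no filter (6 of 35 genes at an unadjusted p under 0.05) and 0 with a fold threshold of 2, and 2 with no fold threshold, which adds position 9 of HOXA. Leaving out one library at a time it was 0 to 2, with 2 to 8 genes at an unadjusted p under 0.05. There the lone library is assumed to vary like the other group. Position 3 of HOXD was called in none of the 4, and the genes called were positions 8 and 9 of HOXA (lower, without Top1 KD replicate 1) and position 3 of HOXB (higher, without Top1 KD replicate 2).

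The median log2 fold change of the tested HOX genes was -0.24, and -0.17 by edgeR, -0.16 by DESeq2, -0.12 with no filter and -0.33 to -0.11 with a library left out. Its sign held under each alternative run. The ratio of the HOXC sums, 0.03 on the log2 scale, turned to -0.015 without Top1 KD replicate 2 and to -0.15 as a mean of log2 fold changes. The cause was not tested. The log2 ratios of the HOXC sums ranged from -0.015 to 0.066 with a library left out. Those of HOXA (-0.24), HOXB (-0.15) and HOXD (0.47) kept their sign under each alternative run, but ranged from -0.40 to -0.081, -0.23 to -0.070 and 0.42 to 0.52 with a library left out, and that of HOXB was -0.37 as a mean of log2 fold changes.

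Libraries that share a replicate number showed no common deviation, with a correlation of -0.01 over the tested genes. Whether they were prepared as pairs cannot be told from this value. With the replicate block the count was 1, and over all genes 1085. Of 341 member values under 11 alternatives, 333 stayed on the same side of the thresholds, 5 lost a call and 3 gained one. Only 1 of the 31 genes was called in the main fit, so most values had no call to lose. A change of sign without a call counts here as the same side. The 5 lost calls were all those of position 3 of HOXD, which kept its call under 6 alternatives. Of the 31 tested genes 21 had a mean of at least 100 normalized counts.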
